A study of Mus musculus with 54 samples.

Results

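Striatum of C3H HeJ mice was compared with striatum of C57BL6/J mice, with 3 arrays per strain. The arrays were chosen by their tissue and strain labels and are 6 of the 54 arrays of the series and 6 of its 18 striatum arrays. The other striatum arrays came from BalbC/J, C57BL10/J, C57BLKS/J and C57L/J, and hippocampus and brainstem of the same 6 strains were also profiled. Every array carried RNA pooled from 3 male mice of 1 strain that had been killed on postnatal day 60. In each strain 1 pool came from mice tested for prepulse inhibition from postnatal day 50, and 2 pools came from mice that were not tested. No transgene, drug or induced mutation was named for any group. The strains differed in their inbred genomes and the pools in the testing. Anything else that went with strain, such as cage or dissection, cannot be told apart from the genome. Pooling leaves the spread between single mice unmeasured, and the pools alternated hemispheres between mice. Nothing in the labels states that the 3 pools of a strain came from separate litters or cages, so p-values measure the spread between pools. In the striatum tests that spread was estimated over all 18 striatum arrays of the 6 strains. An SE can therefore be too small for a gene whose pools vary widely in 1 strain only.

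The striatum is the input stage of the basal ganglia. Most of its neurons are GABAergic spiny projection neurons, which receive glutamate from cortex and thalamus and dopamine from the midbrain, and which are divided into a direct pathway (Drd1, Tac1) and an indirect pathway (Drd2, Penk, Adora2a). Prepulse inhibition is the reduction of the startle response when a weak sound comes shortly before a loud one, and the striatum belongs to the circuits known to regulate it. C57BL6/J and C3H HeJ are inbred strains that are not closely related, so genes can differ between them in expression level, in transcript structure and in the sequence under an array probe.

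All levels below are deposited log2 values, and per-array values are given in the order tested pool, first untested pool and second untested pool. A difference is C3H HeJ minus C57BL6/J on the log2 scale, from a linear model with strain and testing over the 18 striatum arrays (limma, Benjamini-Hochberg adjustment over 12320 genes, called at an adjusted p under 0.05). Of the 12320 genes tested, 2167 were called, which is 17.6%. In C3H HeJ 1538 genes (12.5%) were higher and 629 (5.11%) were lower. The split depended on the scaling: 71.0% of the calls were higher in C3H HeJ as deposited, 59.4% after quantile normalization and 62.4% after median centring. Without the first untested C3H HeJ pool 1428 genes were called, without the first untested C57BL6/J pool 1399 and without the second untested C57BL6/J pool 1288. The median difference over all tested genes was 0.06. Differences over 2-fold were called for 295 genes (2.39%), 160 higher and 135 lower. The 3 arrays of C3H HeJ lay entirely above or entirely below those of C57BL6/J for 4987 genes (40.5%), above for 3557 (28.9%) and below for 1430 (11.6%). Pearson correlations over all probe sets were 0.997 to 0.998 within C3H HeJ, 0.998 within C57BL6/J and 0.991 to 0.992 between the strains, so the arrays grouped by strain. The number of arrays limits the precision, and the median SD between pools was 0.106 in C3H HeJ and 0.0852 in C57BL6/J.

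**Figure D1:**
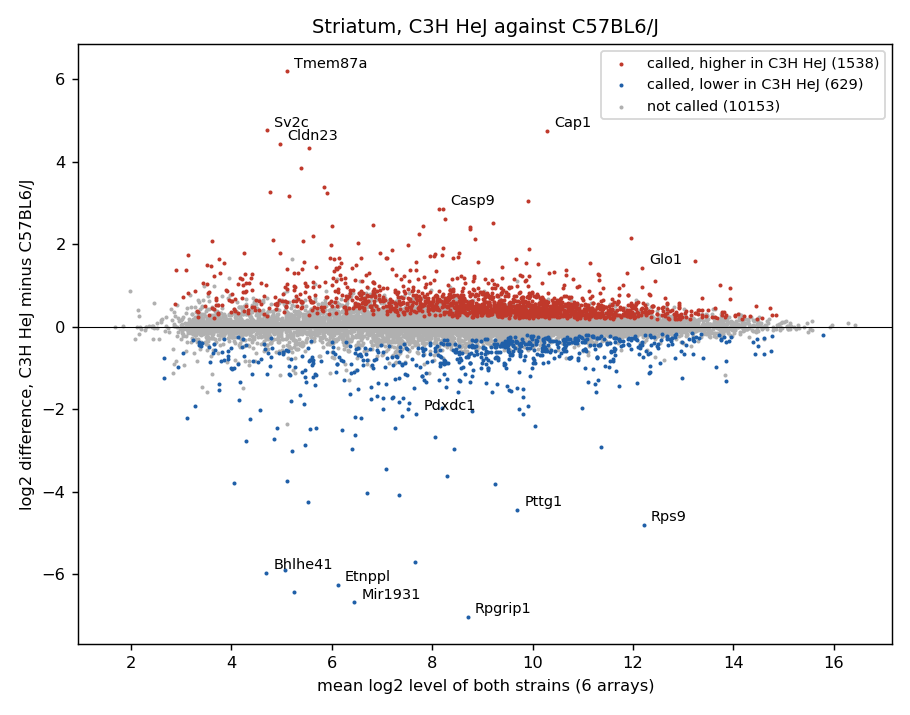
Difference between C3H HeJ and C57BL6/J striatum (log2, vertical axis) against the mean log2 level of each gene over the 6 arrays (horizontal axis), for 12320 genes, coloured by whether the gene was called higher or lower in C3H HeJ. The 1538 genes called higher and the 629 called lower are spread over the whole range of levels, and most called differences are under 2-fold.

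The tissue label was checked against defining markers. Tac1, the precursor of substance P, read 14.05, 14.11 and 14.19 in C3H HeJ and 14.19, 14.07 and 13.94 in C57BL6/J. Penk, the enkephalin precursor of the indirect pathway, read 14.93, 14.95 and 14.80 in C3H HeJ and 14.91, 15.04 and 14.94 in C57BL6/J. Ppp1r1b, which encodes the dopamine- and cAMP-regulated phosphoprotein of spiny neurons, read 13.88, 13.90 and 13.76 in C3H HeJ and 13.87, 13.93 and 13.79 in C57BL6/J. All 3 stood near the top of the array range in every pool, and their arrays overlapped between strains. Markers of neighbouring tissue were uneven from pool to pool. Ttr, the transthyretin of choroid plexus, read 13.70, 13.59 and 12.45 in C3H HeJ and 15.76, 12.44 and 15.04 in C57BL6/J. Slc17a7, the vesicular glutamate transporter of cortical neurons, read 7.69, 9.07 and 5.58 in C3H HeJ and 8.01, 6.17 and 9.42 in C57BL6/J. The variation of Ttr and of Slc17a7 lay within each strain. The summed level of 13 choroid plexus and ependyma genes ranged from 12.61 to 13.78 in C3H HeJ and from 12.57 to 15.80 in C57BL6/J. None of those 13 genes passed the limma test, and none had an unadjusted p under 0.05. None of 11 cortical projection neuron genes passed it either, with 1 at an unadjusted p under 0.05. The 3 blood genes on the array were too dim to be tested.

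The 15 genes highest in C3H HeJ differed by 2.51 to 6.20 on the log2 scale. Tmem87a on chromosome 2, a membrane protein of the Golgi, averaged 8.21 in C3H HeJ and 2.01 in C57BL6/J. Every C57BL6/J array lay under its 40th percentile for Tmem87a, Sv2c, Cldn23 and Pla2g4e, so their differences depend on dim levels and their order is not read as a ranking. Sv2c on chromosome 13, a synaptic vesicle glycoprotein of basal ganglia neurons, read 6.64, 7.25 and 7.37 in C3H HeJ and 2.34, 2.32 and 2.32 in C57BL6/J, a difference of 4.76 ± 0.15 (SE, adjusted p = 8.09e-11). The C57BL6/J arrays lay at the dim end of the range for Sv2c, while all 3 C3H HeJ arrays were well above it. Cldn23 on chromosome 8, a tight junction claudin, read 6.70, 7.43 and 7.42 in C3H HeJ and 2.75, 2.75 and 2.74 in C57BL6/J, a difference of 4.43 ± 0.13 (SE, adjusted p = 6.42e-11). Cfap54 on chromosome 10, a protein of motile cilia, read 7.63, 7.76 and 7.77 in C3H HeJ and 3.61, 3.22 and 3.32 in C57BL6/J, a difference of 4.33 ± 0.30 (SE, adjusted p = 2.59e-07). Neither gene's arrays came near each other between strains. Pla2g4e on chromosome 2, a cytosolic phospholipase that also makes endocannabinoid precursors, averaged 6.41 ± 0.46 in C3H HeJ and 3.15 ± 0.03 in C57BL6/J (SD, n = 3 each). Abhd1 on chromosome 5, a hydrolase, averaged 7.55 ± 0.04 in C3H HeJ and 4.16 ± 0.14 in C57BL6/J (SD, n = 3 each). Insyn2b on chromosome 11, a factor of inhibitory synapses, averaged 6.73 ± 0.23 in C3H HeJ and 3.58 ± 0.10 in C57BL6/J (SD, n = 3 each). Decr2 on chromosome 17, a peroxisomal reductase of fatty acid oxidation, averaged 9.56 ± 0.21 in C3H HeJ and 6.70 ± 0.32 in C57BL6/J (SD, n = 3 each). These 4 genes had differences of 2.86 to 3.39 and non-overlapping arrays. The remaining members of the group were Cap1 (4.75), Pi4kb (3.84), Fhod3 (3.23), Rbm45 (3.04), Casp9 (2.87), F2r (2.61) and Wdfy1 (2.51).

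Among these 15 genes, Fhod3 and Rbm45 were the most variable. Fhod3 on chromosome 18, a formin that assembles actin filaments, read 7.30, 8.08 and 7.22 in C3H HeJ and 4.43, 3.23 and 5.24 in C57BL6/J. Its difference was 3.23 ± 1.06 (SE, adjusted p = 0.0492). Its call was lost when any 1 of the 6 arrays was left out, with differences of 2.61 to 3.65 and adjusted p of 0.0741 to 0.188. Rbm45 on chromosome 2, an RNA-binding protein, read 9.51, 11.81 and 12.95 in C3H HeJ and 8.35, 8.48 and 8.32 in C57BL6/J. The SD of Rbm45 was 1.75 in C3H HeJ and 0.09 in C57BL6/J (n = 3 each), and its difference of 3.04 had an adjusted p of 0.00143 in the limma fit. That fit pools the spread over all striatum arrays, so this p does not follow the wide spread of the C3H HeJ pools alone.

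The 15 genes lowest in C3H HeJ differed by -7.03 to -3.75. Mid1 on the X chromosome, a ubiquitin ligase bound to microtubules, read 2.09, 2.09 and 2.17 in C3H HeJ and 8.58, 8.49 and 6.95 in C57BL6/J, a difference of -5.89 ± 0.28 (SE, adjusted p = 6.81e-09). The SE of Mid1 rests on the spread over all striatum arrays and does not follow the wider spread of the C57BL6/J pools. Tmem267 on chromosome 13 read 4.14, 4.33 and 5.95 in C3H HeJ and 10.81, 10.53 and 10.23 in C57BL6/J, a difference of -5.72 ± 0.40 (SE, adjusted p = 2.9e-07). For both genes the lowest C57BL6/J array stood far above the highest C3H HeJ array. Pttg1 on chromosome 11, the securin that holds sister chromatids together, read 7.43, 7.50 and 7.51 in C3H HeJ and 11.75, 11.95 and 12.06 in C57BL6/J, a difference of -4.44 ± 0.17 (SE, adjusted p = 4.38e-10). Krt12, a keratin known from the cornea, averaged 3.41 ± 0.04 in C3H HeJ and 7.66 ± 0.37 in C57BL6/J (SD, n = 3 each). Sox2ot, a long non-coding RNA that overlaps Sox2, averaged 5.30 ± 0.49 in C3H HeJ and 9.38 ± 0.22 in C57BL6/J (SD, n = 3 each), and Sox2 itself was 0.43 higher in C3H HeJ. Sox2ot and Sox2 therefore had differences of opposite sign. Mtmr7, a phosphoinositide phosphatase, averaged 7.34 ± 0.98 in C3H HeJ and 11.15 ± 0.08 in C57BL6/J (SD, n = 3 each). Myo7a, an unconventional myosin, averaged 2.16 ± 0.51 in C3H HeJ and 5.94 ± 0.10 in C57BL6/J (SD, n = 3 each). Zfp874a, a zinc finger gene, averaged 3.23 ± 0.11 in C3H HeJ and 6.98 ± 0.10 in C57BL6/J (SD, n = 3 each). Arrays of the strains did not overlap for any of these. Every C3H HeJ array lay under its 40th percentile for Mir1931, Gm19439, Bhlhe41, Mid1 and Myo7a, so the sizes of these differences depend on dim levels. The remaining members were Rpgrip1 (-7.03), Mir1931 (-6.68), Gm19439 (-6.44), Etnppl (-6.25), Bhlhe41 (-5.97), Rps9 (-4.81) and Acer3 (-4.04).

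**Figure D2:**
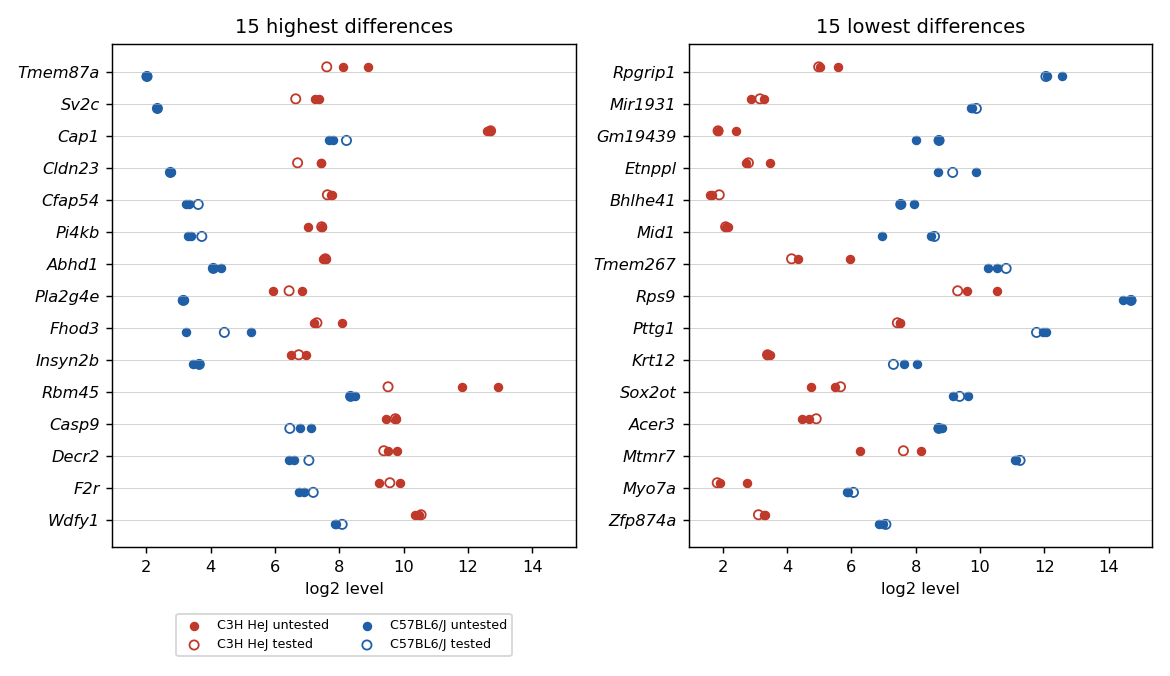
Log2 level on each of the 3 C3H HeJ and 3 C57BL6/J striatum arrays for the 15 genes highest and the 15 lowest in C3H HeJ, with open symbols for pools of tested mice. The strains do not overlap for any of the 30 genes, and Rbm45 in C3H HeJ and Fhod3 in C57BL6/J have the widest spread between pools.

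Other probe sets of the same genes were a second measure of each difference. Of the 2167 called genes, 1191 had at least 1 other tested probe set. All other probe sets were called in the same direction for 210 genes and some of them for 189. None was called for 719 genes, and at least 1 was called in the opposite direction for 73. Of the other probe sets of called genes, 73.3% had the same sign. Among the genes over 2-fold, 137 had another tested probe set, and the same 4 classes held 49, 16, 58 and 14 genes. Which probe set follows the transcript level was not tested. Genes with a single tested probe set, including Sv2c, Cldn23, Cfap54 and Mid1, had no such second measure.

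Several large differences were seen on every probe set. F2r on chromosome 13, a thrombin receptor, read 9.57, 9.23 and 9.88 in C3H HeJ and 7.19, 6.76 and 6.91 in C57BL6/J, and its probe sets differed by 2.61 and 4.31. Casp9 on chromosome 4, the initiator caspase of the mitochondrial death pathway, read 9.74, 9.76 and 9.45 in C3H HeJ and 6.46, 6.78 and 7.10 in C57BL6/J, with differences of 1.48 to 3.96 on its other probe sets. Gnb1 on chromosome 4, a G protein beta subunit, read 13.06, 13.16 and 12.91 in C3H HeJ and 10.90, 10.80 and 10.99 in C57BL6/J, with differences of 2.15 and 1.71. All 3 genes were higher in every C3H HeJ pool than in any C57BL6/J pool. Lower on every probe set were Pttg1 (-4.44 and -4.76), Krt12 (-4.25 and -3.26), Abhd14a (-2.96 and -2.61) and S100a10 (-2.46 and -3.49). Smaller differences with every probe set called alike were those of Rwdd3 (1.77 and 1.73), Zfp729a (1.46, others 2.07 to 3.70) and Pisd-ps3 (-1.59, others -7.37 to -1.68). S100a10 on chromosome 3, the annexin-binding protein p11, read 6.05, 6.01 and 6.05 in C3H HeJ and 8.52, 8.41 and 8.56 in C57BL6/J. Sema3a on chromosome 5, an axon guidance ligand, read 6.19, 6.45 and 6.47 in C3H HeJ and 8.06, 7.99 and 8.16 in C57BL6/J, with differences of -1.70 and -1.55. S100a10 and Sema3a were low in all 3 C3H HeJ pools with little spread. In contrast, the other probe set of Rpgrip1 differed by 0.01, that of Rps9 by 0.23, that of Pi4kb by 0.07 and that of Mtmr7 by -0.32, and probe sets of Acer3 ranged up to 1.30.

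Pdxdc1 on chromosome 16, which encodes a protein with a pyridoxal-dependent decarboxylase domain, had 4 tested probe sets, called A to D here, with A the brightest. Probe set A, the one used in the model, read 6.76, 6.45 and 6.67 in C3H HeJ and 8.84, 8.71 and 8.65 in C57BL6/J, a difference of -2.10 ± 0.21 (SE, adjusted p = 9.61e-06). Probe set B read 3.10, 2.65 and 3.24 in C3H HeJ and 9.48, 9.69 and 9.61 in C57BL6/J. Probe set C read 9.76, 10.19 and 9.88 in C3H HeJ and 2.74, 2.76 and 2.76 in C57BL6/J. Probe sets B and C thus had non-overlapping arrays in opposite directions, with differences of -6.60 and 7.19, and probe set D differed by -0.77. BalbC/J read like C3H HeJ on these 2 probe sets, with means of 3.05 on B and 10.43 on C. C57BL10/J, C57BLKS/J and C57L/J read like C57BL6/J, with means of 9.58 to 9.73 on B and 2.70 to 2.76 on C. The mean of the 4 probe sets differed by -0.57 (adjusted p = 0.00124). Of 14 tested neighbours of Pdxdc1 on chromosome 16, Marf1 was called. Marf1, a regulator of RNA in oocytes, read 11.07, 11.11 and 10.80 in C3H HeJ and 9.55, 9.68 and 9.81 in C57BL6/J, a difference of 1.31, and its other probe sets differed by -0.07 and 0.11.

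**Figure D3:**
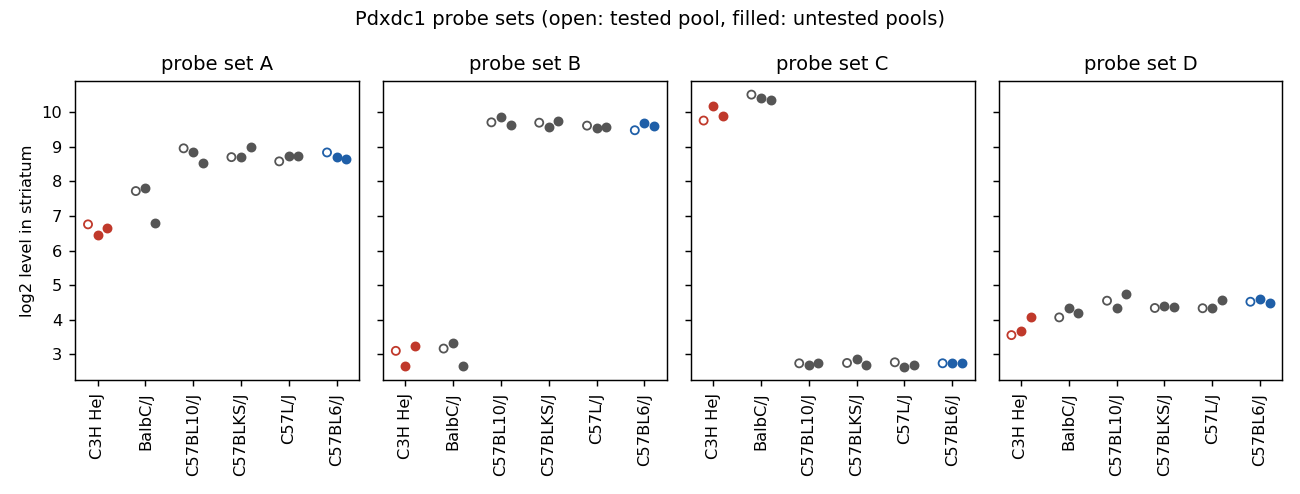
Log2 level of the 4 probe sets of Pdxdc1 on every striatum array of the 6 strains, with a panel for each probe set. Probe set B is low and probe set C is high in C3H HeJ and BalbC/J. The same probe sets are high and low in C57BL6/J, C57BL10/J, C57BLKS/J and C57L/J.

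The largest differences included a microRNA locus and its surroundings on chromosome 10. MicroRNAs are short RNAs that pair with messenger RNAs, chiefly through a seed near their 5′ end, and the mature sequence is shown because this locus was among the 15 lowest differences. Capitals mark the seed, bases 2 to 8.
mmu-miR-1931: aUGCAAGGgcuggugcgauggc
The mature sequence lies on the plus strand at chr10:93162879-93162900 of GRCm38.p6 (RefSeq). The probe set named for Mir1931 read 3.16, 2.88 and 3.27 in C3H HeJ and 9.88, 9.73 and 9.74 in C57BL6/J, a difference of -6.68 ± 0.21 (SE, adjusted p = 8.09e-11). These arrays were designed for messenger RNA, so the value is given as a level of RNA from the locus and not of the mature microRNA. Cdk17, the gene that hosts the locus, differed by 0.11 (adjusted p = 0.441). Cfap54, the tested gene on the other side of Cdk17, was the one described above as higher in C3H HeJ (4.33). Adjacent genes of the region thus had differences of 4.33, 0.11 and -6.68.

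Neighbours of named genes were examined in the same way, 2 tested genes on each side. These were genes with large differences, genes with all probe sets called alike and genes with the smallest p in the comparison between tissues below. Of 147 distinct neighbours that were not themselves among the 41 named genes, 28 were called (19%, against 17.6% of all genes) and 12 of them differed over 2-fold (8.16%, against 2.39%). On chromosome 7, Myo7a (-3.78), Capn5 (-1.34) and Acer3 (-4.04) were 3 adjacent genes lower in C3H HeJ. Capn5 lost its call without either untested C3H HeJ pool and without the tested or the second untested C57BL6/J pool (-1.35 to -1.21, adjusted p of 0.0697 to 0.0929), and another probe set of Acer3 was called higher (1.30). On chromosome 6, Rassf8 (-1.26), Bhlhe41 (-5.97) and Sspn (-2.17) were another such group. On the X chromosome, Mid1 (-5.89), G530011O06Rik (-2.86) and Erdr1 (-1.93) were lower in C3H HeJ and their neighbour Hccs was higher (1.00). On chromosome 5, Cgref1 (1.22) and Abhd1 (3.39) were adjacent and higher in C3H HeJ. On chromosome 2, Vps39 (1.05) lay next to Tmem87a and was higher in C3H HeJ. On chromosome 13, F2r (2.61) and Sv2c (4.76) were separated by Iqgap2, which differed by 0.06.

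Dopamine signalling was described next, because dopamine is the main modulator of spiny neurons. Of 31 tested genes of dopamine receptors and their signalling, Gnb1 and Gsk3b rose and Rgs4 fell, with a median difference of 0.02, against 12.5% of all genes that rose and 5.11% that fell. The same shares of all genes apply to the lists that follow. Drd1, the receptor of the direct pathway, read 13.73, 13.66 and 13.65 in C3H HeJ and 13.83, 13.76 and 13.64 in C57BL6/J (difference -0.06, adjusted p = 0.937). Drd2, the receptor of the indirect pathway, read 12.51, 12.37 and 12.15 in C3H HeJ and 12.70, 12.81 and 12.72 in C57BL6/J (difference -0.40, adjusted p = 0.227). Drd1 arrays overlapped and Drd2 arrays did not. The Drd2 difference passed the threshold when the 6 arrays were fitted alone (adjusted p = 0.0345). Rgs4, a regulator that shortens G protein signalling, read 13.09, 13.00 and 12.98 in C3H HeJ and 13.66, 13.89 and 13.77 in C57BL6/J, a difference of -0.75 ± 0.08 (SE, adjusted p = 1.98e-05). Its 2 other probe sets were also lower in C3H HeJ, by -1.41 and -1.12. Gsk3b, a kinase downstream of dopamine and insulin signals, differed by 0.30 (adjusted p = 0.0464) and lost its call without any 1 of the 6 arrays (adjusted p of 0.0519 to 0.185). Of 10 genes of dopamine synthesis and transport, none rose and Slc18a2 and Qdpr fell, and 4 fell after quantile normalization. Slc18a2, the vesicular monoamine transporter, read 6.86, 7.05 and 5.98 in C3H HeJ and 8.10, 9.25 and 8.05 in C57BL6/J, a difference of -1.84 ± 0.48 (SE, adjusted p = 0.0172). The call of Slc18a2 was lost without the second untested C3H HeJ pool (-1.53, adjusted p = 0.0777) and without the first untested C57BL6/J pool (-1.40, adjusted p = 0.0896). Qdpr, which recycles the tetrahydrobiopterin cofactor, averaged 14.20 ± 0.02 in C3H HeJ and 14.58 ± 0.08 in C57BL6/J (SD, n = 3 each), and fell by 0.38.

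Of 23 spiny projection neuron genes, Foxp2 rose, Ano3 and Scn4b fell, and the median difference was 0.04. Ano3, a membrane protein of the anoctamin family, read 10.49, 10.51 and 10.66 in C3H HeJ and 11.99, 11.95 and 11.89 in C57BL6/J, a difference of -1.39 ± 0.18 (SE, adjusted p = 1.09e-04). Both probe sets of Ano3 were lower in C3H HeJ (-1.39 and -1.53). Scn4b, an auxiliary sodium channel subunit, read 13.16, 13.07 and 13.29 in C3H HeJ and 14.01, 14.26 and 14.17 in C57BL6/J, a difference of -0.98. Foxp2, a transcription factor linked to speech in humans, differed by 0.53, and its other probe sets ranged from -2.16 to 0.81, with at least 1 called in the opposite direction. Pde10a, the phosphodiesterase of spiny neurons, read 14.86, 14.77 and 14.81 in C3H HeJ and 14.90, 14.91 and 14.81 in C57BL6/J and was not called. Of 7 direct pathway genes, Eya1 rose (1.15) and its other probe set differed by 0.04. None of 5 indirect pathway genes was called by limma, with 0 at an unadjusted p under 0.05, and Adora2a was not tested. None of 11 striosome and matrix genes was called, with 4 at an unadjusted p under 0.05, and none of 8 interneuron genes, with 0. The interneuron list held 16 genes, and Chat, Th and Calb2 were among those not tested. The C3H HeJ and C57BL6/J summed levels of the 23 spiny neuron genes were 17.90 to 17.98 and 17.91 to 18.01.

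Among transmitter receptors, GABA-A subunits held the largest difference. Gabra2, the alpha subunit of many limbic and striatal receptors, read 11.77, 11.80 and 12.17 in C3H HeJ and 10.63, 10.21 and 10.23 in C57BL6/J, a difference of 1.56 ± 0.16 (SE, adjusted p = 2.06e-05). Its other probe sets differed by 1.37 and 1.39. An intronic deletion that lowers Gabra2 expression is known in C57BL6/J, and the other 4 strains of the series averaged between 11.68 and 11.91. Gabrg1, a gamma subunit, differed by 0.57 (adjusted p = 0.0158). The call of Gabrg1 was lost without the tested C57BL6/J pool (0.51, adjusted p = 0.0627), and its other probe set differed by -0.01. Of 9 tested GABA-A genes these 2 rose and none fell. Of 21 ionotropic glutamate receptor genes, Grin2b and Grik3 rose and Grik4 fell. Grin2b, an NMDA receptor subunit, read 11.31, 11.39 and 11.34 in C3H HeJ and 10.84, 10.79 and 10.94 in C57BL6/J on its brightest probe set (0.49), while 1 of its other probe sets was called in the opposite direction (-1.56, adjusted p = 0.0213) and the other was not called (-0.76, adjusted p = 0.0985). The direction for Grin2b therefore depended on the probe set. Grik3, a kainate receptor subunit, differed by 0.38 on its only tested probe set, and Grik4, another kainate subunit, by -0.59. Grik4 lost its call without any C3H HeJ pool or without the second untested C57BL6/J pool (-0.61 to -0.38, adjusted p of 0.0659 to 0.141). Of 11 metabotropic glutamate receptor and transporter genes, Slc1a1 rose (0.32) and Slc1a2 fell (-0.59).

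Of 24 neuropeptide and peptide receptor genes, Npy2r and Ntsr2 rose and none fell. Ntsr2, a neurotensin receptor, read 11.99, 11.95 and 12.08 in C3H HeJ and 11.39, 11.32 and 11.45 in C57BL6/J, a difference of 0.62 ± 0.12 (SE, adjusted p = 0.00274). Npy2r, a receptor of neuropeptide Y, read 5.02, 5.09 and 4.37 in C3H HeJ and 4.22, 3.69 and 3.41 in C57BL6/J, a difference of 1.06. Npy2r lost its call without the first untested C3H HeJ pool (0.85, adjusted p = 0.0676) and without the second untested C57BL6/J pool (0.94, adjusted p = 0.0637). Of 32 potassium channel genes, 5 rose and 2 fell, against 12.5% and 5.11% of all genes. Kcnj10, an inward rectifier of glia, read 10.48, 10.57 and 10.19 in C3H HeJ and 9.38, 9.37 and 9.52 in C57BL6/J, a difference of 0.99. Kcnma1, the large-conductance calcium-activated channel, differed by 0.69, and Kcnh1, a voltage-gated channel, by 0.63. Kcnn2 (0.51) and Kcnq5 (0.32) were the other 2 that rose, although a probe set of Kcnq5 was called in the opposite direction (-4.09). Kcnn2 lost its call without any array but the tested C57BL6/J pool (adjusted p of 0.059 to 0.102), and Kcnq5 without either untested C3H HeJ pool or the second untested C57BL6/J pool (0.122 to 0.195). The 2 that fell, Kcnk2 (-0.66) and Kcnk1 (-0.42), are background leak channels, and the call of Kcnk2 was lost without the tested C3H HeJ pool (-0.56, adjusted p = 0.0661). Without either untested C3H HeJ pool or without the second untested C57BL6/J pool, 3 potassium channel genes rose, and 2 rose on the mean of probe sets. Of 26 synaptic vesicle and release genes, Sv2c and Syt2 rose and Syt1 fell. Syt1, the calcium sensor of fast release in forebrain neurons, read 12.47, 12.55 and 12.35 in C3H HeJ and 13.29, 13.13 and 13.24 in C57BL6/J, a difference of -0.76, and Syt2, a related sensor, differed by 0.91. No gene was called by limma among 8 genes of GABA synthesis and transport (0 at an unadjusted p under 0.05), 6 acetylcholine genes (0), 6 serotonin receptors (1), 11 endocannabinoid and adenosine genes (2) or 17 activity-regulated genes (0). These lists were only partly tested, with 6 of 16 listed acetylcholine genes and 6 of 13 serotonin receptors. Chat, Slc18a3, Slc5a7, Htr2a, Adora1 and Adora2a were among the genes not tested, so the result does not cover them.

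Myelin and oligodendrocyte genes were lower in C3H HeJ. Of 15 tested members, 10 fell and none rose (66.7% called, against 17.6% of all genes called and 5.11% that fell), with a median difference of -0.59 against 0.06 over all genes. In a bulk sample, fewer cells of a type and less RNA per cell cannot be told apart. Mal, a lipid raft protein of myelin, read 13.38, 13.38 and 13.57 in C3H HeJ and 14.25, 14.11 and 14.47 in C57BL6/J, a difference of -0.83 ± 0.13 (SE, adjusted p = 8.64e-04). Mag, the myelin-associated glycoprotein, read 11.37, 11.37 and 11.15 in C3H HeJ and 11.95, 11.86 and 12.12 in C57BL6/J, a difference of -0.68 ± 0.14 (SE, adjusted p = 0.0044). Mobp, a structural protein of compact myelin, read 14.34, 14.28 and 14.21 in C3H HeJ and 14.89, 14.80 and 15.11 in C57BL6/J, a difference of -0.65 ± 0.10 (SE, adjusted p = 3.53e-04). The strains did not overlap for any of the 3 genes. Gjb1, a gap junction protein of oligodendrocytes, had the largest difference of the list (-1.27). Cldn11, Opalin, Ermn, Mog, Myrf and Sox10 fell by 0.43 to 0.67. Of these, Ermn, Mog and Myrf lost their calls without any array but the second untested C3H HeJ and the first untested C57BL6/J pool, Sox10 without any but the second untested C3H HeJ pool and Opalin without any but the tested C57BL6/J pool (adjusted p of 0.0559 to 0.177). Mbp, the myelin basic protein, read 15.96, 15.94 and 15.83 in C3H HeJ and 15.86, 15.95 and 15.94 in C57BL6/J and was not called. Without the tested C3H HeJ pool 5 members were called, without the first untested C3H HeJ pool 5, without the tested C57BL6/J pool 6 and without the second untested C57BL6/J pool 5, all of them lower, and the median stayed between -0.67 and -0.47. With untested pools only 5 were called, and the median was -0.63 after quantile normalization and -0.62 after median centring. The summed level of the 15 genes was 17.06 to 17.07 in C3H HeJ and 17.31 to 17.49 in C57BL6/J. The medians of the same list were -0.52 in hippocampus and -0.44 in brainstem, and no member passed the test for a difference between tissues.

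The astrocyte and microglia lists had calls in both directions. Of 8 oligodendrocyte precursor genes, Tmem100 (-0.81) and Olig2 (-0.49) fell and none rose. Olig2, a transcription factor of the oligodendrocyte lineage, lost its call without the tested or the first untested C3H HeJ pool and without the tested or the second untested C57BL6/J pool (-0.49 to -0.40, adjusted p of 0.0549 to 0.0932). Of 16 astrocyte genes, Gja1 rose (0.36) and Slc1a2 (-0.59), Sox9 (-0.44) and Aldoc (-0.38) fell. On the mean of probe sets Gja1 (0.17, adjusted p = 0.0666), Slc1a2 (-0.14, adjusted p = 0.67) and Sox9 (-0.18, adjusted p = 0.228) lost their limma calls. Aldoc, an aldolase of astrocytes, read 13.67, 13.67 and 13.64 in C3H HeJ and 13.91, 14.06 and 14.14 in C57BL6/J. Slc1a2, the main glutamate transporter of astrocytes, read 14.49, 14.53 and 14.32 in C3H HeJ and 14.95, 15.08 and 15.08 in C57BL6/J, but its other probe sets ranged from -5.58 to 2.51. Sox9 lost its call without the tested or the first untested C3H HeJ pool and without either untested C57BL6/J pool (-0.46 to -0.36, adjusted p of 0.0578 to 0.113). Of 15 microglia genes, Aif1 and P2ry12 rose and Fcrls, C1qc, C1qb and Itgam fell. Fcrls, an Fc receptor-like protein of microglia, read 5.11, 5.45 and 5.54 in C3H HeJ and 7.59, 7.28 and 7.81 in C57BL6/J, a difference of -2.19 ± 0.18 (SE, adjusted p = 1.97e-06). Aif1, an actin-binding protein of microglia, read 9.31, 9.17 and 9.11 in C3H HeJ and 7.85, 8.12 and 7.95 in C57BL6/J, a difference of 1.22 ± 0.10 (SE, adjusted p = 1.75e-06). These 2 microglial markers therefore differed in opposite directions. Of the 3 chains of complement C1q, C1qc differed by -2.04 and C1qb by -1.33, while C1qa differed by 0.10 (adjusted p = 0.689). P2ry12 (0.41) lost its call without any array but the first untested C3H HeJ pool (adjusted p of 0.0665 to 0.143), and Itgam (-0.87) lost it without the second untested C3H HeJ pool (-0.75, adjusted p = 0.0724) or the second untested C57BL6/J pool (-0.83, adjusted p = 0.0654). No gene was called by limma among 9 endothelial genes (0 at an unadjusted p under 0.05) or 9 pericyte and meningeal genes (2). The same holds for 7 thalamic neuron genes (2). Of 5 tested genes of pallidal, septal and hypothalamic neurons, Trpc4, a cation channel, rose (1.41). Of 10 genes of immature neurons, Sox11, a transcription factor, fell (-0.71), although another of its probe sets was called in the opposite direction (2.68). Sox11 lost its call without any array but the second untested C57BL6/J pool (-0.73 to -0.57, adjusted p of 0.0756 to 0.138).

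**Figure D4:**
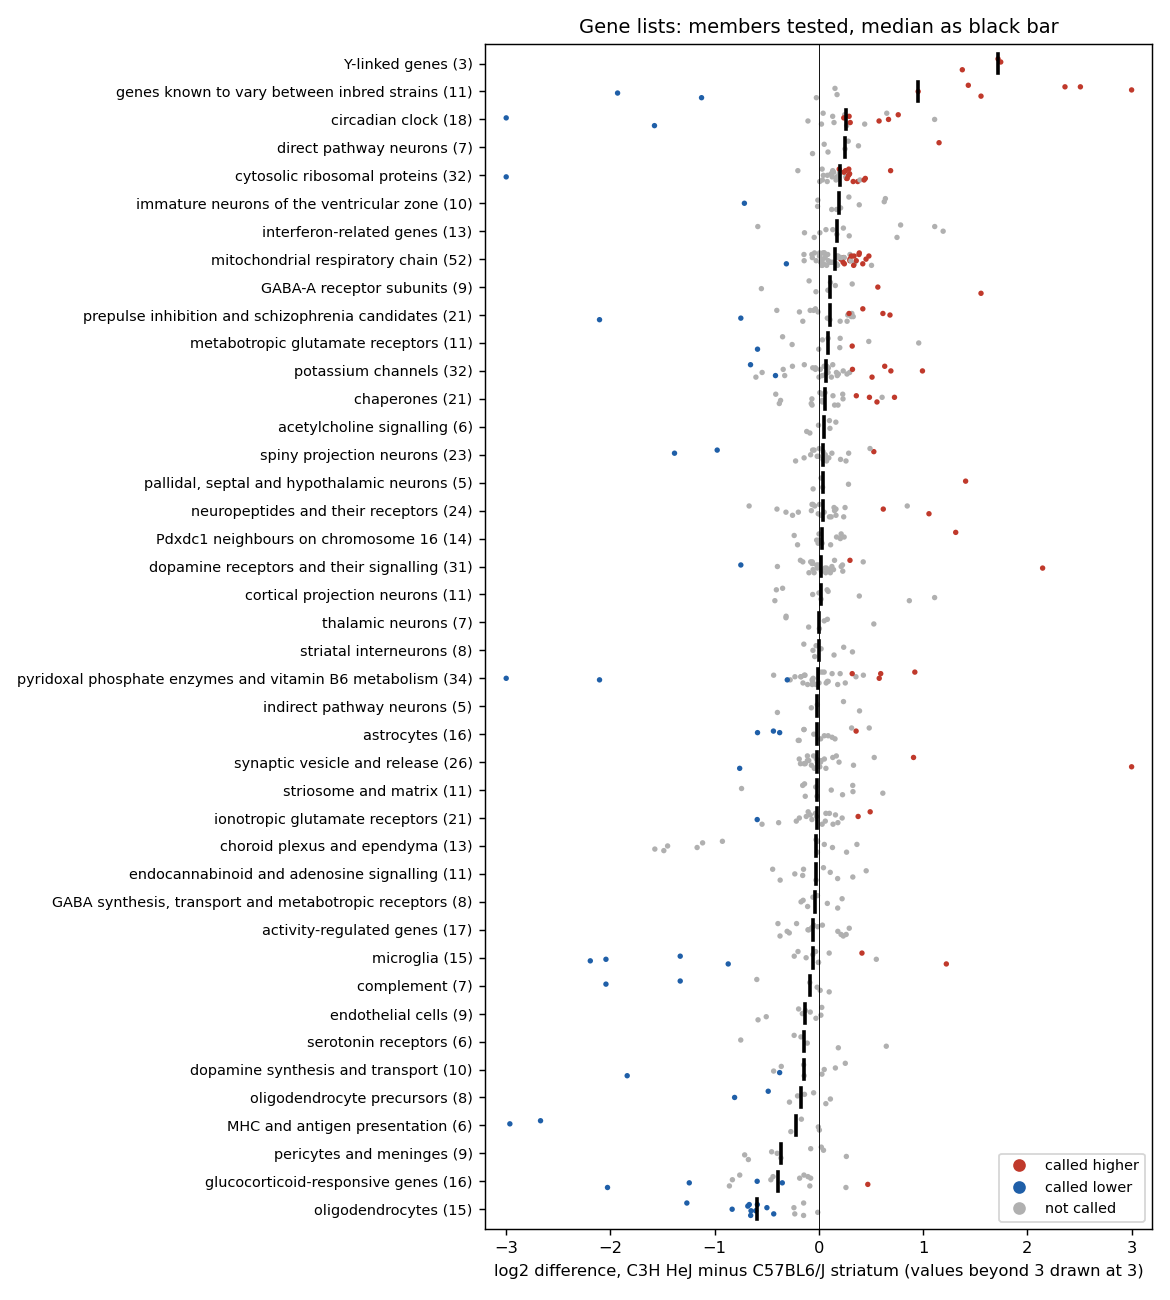
Difference between C3H HeJ and C57BL6/J striatum (log2, horizontal axis) for the tested genes of each list, with black bars for the list medians and values beyond 3 drawn at 3. The oligodendrocyte list has its median at -0.59, and most lists of neuronal genes have medians near 0.

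Of 32 cytosolic ribosomal protein genes, 13 rose and 1 fell, with a median difference of 0.20, against 12.5% that rose, 5.11% that fell and a median of 0.06 over all genes, whose calls also lay mostly on the higher side. Rps2 read 13.77, 13.71 and 13.65 in C3H HeJ and 13.08, 13.02 and 12.96 in C57BL6/J, a difference of 0.69 ± 0.06 (SE, adjusted p = 6.03e-06). Rps18 read 13.81, 13.88 and 13.88 in C3H HeJ and 13.39, 13.43 and 13.41 in C57BL6/J, a difference of 0.45 ± 0.05 (SE, adjusted p = 8.04e-05). The pools of each strain lay close together for these small-subunit genes. Rpsa differed by 0.43. The gene that fell was Rps9, whose other probe set differed by 0.23. When single arrays were left out, 6 to 8 genes rose, 7 without the tested, 7 without the first untested and 8 without the second untested C3H HeJ pool, and 7, 6 and 6 without the C57BL6/J pools in the same order. After median centring 6 ribosomal genes rose (median 0.17), after quantile normalization 12 (0.18), and 5 rose with untested pools only. Of 52 respiratory chain genes, 15 rose and 1 fell, with a median difference of 0.15, against the same shares of all genes. Sdhc, a membrane anchor of succinate dehydrogenase, read 12.84, 12.88 and 12.72 in C3H HeJ and 12.33, 12.36 and 12.40 in C57BL6/J, a difference of 0.45 ± 0.07 (SE, adjusted p = 8.64e-04). Ndufc1, a subunit of complex I, read 12.79, 12.79 and 12.92 in C3H HeJ and 12.41, 12.34 and 12.31 in C57BL6/J, a difference of 0.48. The gene that fell, Cox5b of cytochrome c oxidase (-0.31), lost its call without the tested or the first untested C3H HeJ pool or the tested C57BL6/J pool (-0.30 to -0.27, adjusted p of 0.0547 to 0.0673). Without the second untested C3H HeJ pool 9 respiratory genes rose, without the first untested C57BL6/J pool 9, and without the second untested C57BL6/J pool 8. The respiratory median was 0.12 after median centring and 0.11 after quantile normalization, with 10 and 14 genes that rose. Both lists were also tested for a strain difference in striatum that differed from the mean of hippocampus and brainstem. Higher here means more positive in striatum. In that test 16 of 32 ribosomal and 18 of 52 respiratory genes were higher and none was lower, against 924 higher among 11606 genes. Rps9 was among the higher ones, although its difference was smallest in striatum (-4.81, against -5.23 in hippocampus and -5.85 in brainstem). These list counts were taken as deposited only. Over all genes the higher share of calls in this test was 80.3% as deposited and 67.6% after quantile normalization. The ribosomal medians were -0.02 in hippocampus and -0.03 in brainstem, and the respiratory medians were -0.07 in hippocampus and 0.03 in brainstem. Of 21 chaperones, Hspa5 (0.48), Manf (0.56), Sdf2l1 (0.73) and Hspe1 (0.36) rose and none fell. Manf lost its call without any array but the tested C57BL6/J pool (adjusted p of 0.0593 to 0.0978), Sdf2l1 without any but the second untested C3H HeJ pool (0.0574 to 0.0977) and Hspe1 without the second untested C3H HeJ pool or either untested C57BL6/J pool (0.0578 to 0.105). Hspa5, the main chaperone of the endoplasmic reticulum, read 13.22, 13.12 and 13.16 in C3H HeJ and 12.80, 12.62 and 12.63 in C57BL6/J. The number of chaperones that rose was 2 without any C3H HeJ pool, and 1 without the first untested or the second untested C57BL6/J pool or with untested pools only.

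The circadian clock is a transcriptional loop in which Clock or Npas2 pairs with Arntl at E-box sequences, and Per, Cry and Bhlhe proteins repress them. Of 18 tested clock genes, 6 rose and 2 fell (44.4% called), against 12.5% of all genes that rose and 5.11% that fell, with a median difference of 0.26. Bhlhe41, a repressor of the loop on chromosome 6, read 1.89, 1.60 and 1.65 in C3H HeJ and 7.53, 7.55 and 7.95 in C57BL6/J, a difference of -5.97 ± 0.33 (SE, adjusted p = 3.21e-08). Its paralog Bhlhe40 read 9.70, 9.64 and 9.67 in C3H HeJ and 8.86, 8.83 and 9.04 in C57BL6/J, a difference of 0.76 ± 0.15 (SE, adjusted p = 0.00424). The paralogs thus differed in opposite directions, and the arrays overlapped for neither. Dbp, an output transcription factor of the clock, read 14.18, 14.19 and 14.40 in C3H HeJ and 13.60, 13.65 and 13.52 in C57BL6/J, a difference of 0.67. Ciart, a repressor of Clock and Arntl, read 8.95, 9.31 and 9.22 in C3H HeJ and 8.65, 8.38 and 8.71 in C57BL6/J, a difference of 0.58. Ciart lost its call without the first untested C3H HeJ pool (0.49, adjusted p = 0.0863), the second untested C3H HeJ pool (0.54, adjusted p = 0.0673) or the first untested C57BL6/J pool (0.48, adjusted p = 0.0929). Npas2, the paralog of Clock, read 8.27, 7.17 and 9.77 in C3H HeJ and 10.02, 10.15 and 9.78 in C57BL6/J, a difference of -1.58. The C3H HeJ pools of Npas2 were widely spread, and its call was lost without any array but the second untested C3H HeJ pool (-1.66 to -0.96, adjusted p of 0.0533 to 0.0848). The other genes that rose were Tef (0.30), Rora (0.29) and Nr1d2 (0.24). Rora lost its call without any 1 of the 6 arrays (adjusted p of 0.0559 to 0.125) and after either scaling, and Tef without the first untested C3H HeJ pool or either untested C57BL6/J pool (0.20 to 0.29, adjusted p of 0.0856 to 0.122). On the mean of probe sets Rora differed by -0.058 and Nr1d2 by -0.014. Without the first untested C3H HeJ pool 3 clock genes rose, without the first untested C57BL6/J pool 3, and without the second untested pool of either strain 4. Mice were kept on a light and dark cycle, and the labels give no hour of killing.

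The promoters of Ciart and Bhlhe41 are shown because these clock genes differed in opposite directions and each holds the E-box CACGTG, which is written in capitals. Each sequence runs from 250 bases before to 50 bases after the gene's start, on the minus strand of GRCm38.p6 (RefSeq).
Ciart, chr3:95882179-95882478: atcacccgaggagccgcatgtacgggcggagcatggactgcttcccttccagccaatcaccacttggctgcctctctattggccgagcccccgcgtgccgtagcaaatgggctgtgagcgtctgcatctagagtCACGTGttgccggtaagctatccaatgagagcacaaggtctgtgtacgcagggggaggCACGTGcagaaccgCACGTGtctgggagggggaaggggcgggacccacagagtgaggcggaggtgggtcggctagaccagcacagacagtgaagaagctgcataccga
Bhlhe41, chr6:145865371-145865670: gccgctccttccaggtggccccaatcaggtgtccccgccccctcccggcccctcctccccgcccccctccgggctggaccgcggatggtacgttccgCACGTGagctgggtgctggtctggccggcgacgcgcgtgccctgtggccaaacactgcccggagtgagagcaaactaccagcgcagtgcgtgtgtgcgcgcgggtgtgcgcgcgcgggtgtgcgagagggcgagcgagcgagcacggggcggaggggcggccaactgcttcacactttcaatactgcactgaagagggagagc
The E-box is its own reverse complement, so a search of 1 strand covers both, and no overlap with another motif was scored. Ciart held 3 copies and Bhlhe41 held 1. Of 16 tested clock genes with a promoter sequence, 5 held the E-box, among them 3 of the 7 called ones. Of all 27025 genes with a promoter sequence of this length, 8.09% held it in at least 1 promoter, and of all 32851 promoters 7.15% did. A match describes the letters of the reference genome, which is that of C57BL6/J, and shows no binding.

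Of 16 glucocorticoid-responsive genes, 4 fell and 1 rose, against 5.11% of all genes that fell and 12.5% that rose, with a median difference of -0.40. Sgk1, a serum- and glucocorticoid-regulated kinase, read 12.35, 12.33 and 12.41 in C3H HeJ and 13.63, 13.49 and 13.70 in C57BL6/J, a difference of -1.24 ± 0.28 (SE, adjusted p = 0.00693). Arrdc2, an arrestin-domain protein, averaged 3.56 ± 0.23 in C3H HeJ and 5.59 ± 0.31 in C57BL6/J (SD, n = 3 each), a difference of -2.03. Nr3c1, the glucocorticoid receptor itself, read 11.70, 11.66 and 11.67 in C3H HeJ and 11.29, 11.09 and 11.24 in C57BL6/J, a difference of 0.47. The receptor was higher and 4 of its responsive genes were lower in C3H HeJ, although the other probe sets of Nr3c1 were not called (-0.44 to 0.27). Nfkbia (-0.59) and Errfi1 (-0.35) also fell, and both lost their calls without any array but the second untested C3H HeJ pool, with adjusted p of 0.0519 to 0.0987 for Nfkbia and 0.0664 to 0.159 for Errfi1. Without the tested or the first untested C3H HeJ pool, or the tested or the second untested C57BL6/J pool, or with untested pools only, 2 genes of the list fell. The medians were -0.38 in hippocampus and -0.23 in brainstem.

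Genes known to vary between inbred strains were listed with earlier results of these data known, so they are no independent check of the strain labels. Of 11 tested, 6 rose and 2 fell, and the same counts were found on leaving out each array in turn. Nnt, the mitochondrial transhydrogenase, in which C57BL6/J is known to carry a deletion, read 11.00, 10.97 and 11.29 in C3H HeJ and 10.32, 10.10 and 9.99 in C57BL6/J, a difference of 0.95. Glo1, the glyoxalase that removes methylglyoxal, read 12.90, 12.76 and 13.02 in C3H HeJ and 11.45, 11.48 and 11.45 in C57BL6/J, a difference of 1.43 ± 0.07 (SE, adjusted p = 1.13e-08). Alad, the second enzyme of haem synthesis, read 9.83, 9.98 and 9.97 in C3H HeJ and 7.81, 7.51 and 7.38 in C57BL6/J (2.36), and its other probe set differed by 0.22. Every C3H HeJ pool was above every C57BL6/J pool for these genes. Wdfy1, an endosomal protein, averaged 10.46 ± 0.09 in C3H HeJ and 7.95 ± 0.12 in C57BL6/J (SD, n = 3 each), with differences of 2.24 and 2.29 on its other probe sets. Akr1e1 (-1.13) and Erdr1 (-1.93) were the 2 that fell. All 3 tested Y-linked genes rose, Kdm5d by 1.72, Uty by 1.74 and Eif2s3y by 1.38, and every probe set of each was higher in C3H HeJ. Of 6 genes of the major histocompatibility complex and antigen presentation, H2-K1 (-2.96) and H2-D1 (-2.67) fell, and the strains carry different haplotypes of this complex. H2-D1 read 7.94, 7.16 and 5.09 in C3H HeJ and 9.42, 9.32 and 9.47 in C57BL6/J, and its other probe sets ranged from -3.28 to 3.03. None of 13 interferon-related genes was called by limma, with 2 at an unadjusted p under 0.05.

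Of 21 candidate genes of prepulse inhibition and schizophrenia, 4 rose and 2 fell, against 12.5% of all genes that rose and 5.11% that fell. Nrg1, a ligand of ErbB receptors, read 7.26, 7.78 and 7.48 in C3H HeJ and 6.86, 6.98 and 6.84 in C57BL6/J, a difference of 0.61 ± 0.12 (SE, adjusted p = 0.00256). Dtnbp1, a subunit of the vesicle-sorting complex BLOC, read 10.82, 11.00 and 10.93 in C3H HeJ and 10.61, 10.37 and 10.50 in C57BL6/J, a difference of 0.42. Fabp7, a brain fatty acid-binding protein, read 10.72, 10.60 and 10.30 in C3H HeJ and 9.77, 9.97 and 9.83 in C57BL6/J, a difference of 0.68. Fabp7 lost its call without any array but the second untested C3H HeJ pool (0.60 to 0.75, adjusted p of 0.0655 to 0.133), and Zfp804a (0.29) without any array but the first untested C3H HeJ pool (0.22 to 0.32, adjusted p of 0.0621 to 0.168). The 2 that fell were Pdxdc1 and Rgs4, and for Pdxdc1 the direction depended on the probe set (-2.10 on A and 7.19 on C). The number that rose was 2 without the tested C3H HeJ pool and 2 without any C57BL6/J pool, near the share of all genes. Of 34 enzymes that use pyridoxal phosphate or process vitamin B6, 4 rose and 3 fell (20.6% called, near the 17.6% of all genes), with a median difference of -0.01, and 6 fell after quantile normalization. Pdxdc1 was counted among those that fell, with the same limit. Etnppl, which degrades phosphoethanolamine, read 2.80, 2.73 and 3.46 in C3H HeJ and 9.15, 8.71 and 9.88 in C57BL6/J, and both of its probe sets were lower (-6.25 and -2.25). Psat1, an enzyme of serine synthesis, read 12.86, 12.93 and 13.12 in C3H HeJ and 12.44, 12.30 and 12.44 in C57BL6/J, a difference of 0.58, with 0.53 on its other probe set. Cth, which makes cysteine from cystathionine, averaged 5.57 ± 0.33 in C3H HeJ and 4.65 ± 0.09 in C57BL6/J (SD, n = 3 each). Alas1, the first enzyme of haem synthesis, differed by 0.59 and its other probe set by -0.05. Sgpl1 (0.32) lost its call without any array but the second untested C3H HeJ pool (adjusted p of 0.0506 to 0.167), and Got1 (-0.30) without any array but the first untested C3H HeJ pool (adjusted p of 0.0636 to 0.0973).

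The difference between strains was then compared between tissues, as the C3H HeJ minus C57BL6/J difference in striatum minus the mean of the same difference in hippocampus and brainstem. Striatum, hippocampus and brainstem pools share mice, so these p-values are not exact. Of 11606 genes tested over the 54 arrays, 1150 (9.91%) were called, 924 with a more positive difference in striatum and 226 with a more negative one. Without the first untested C57BL6/J pool 697 were called, and without the second 765. The higher share was 80.3% as deposited and 67.6% after quantile normalization. Mir1931 differed by -6.68 in striatum, -5.05 in hippocampus and -1.04 in brainstem (test of the difference -3.63, adjusted p = 2.64e-13), and Cfap54 by 4.33 in striatum, 3.44 in hippocampus and 0.76 in brainstem (2.23, adjusted p = 6.06e-05). Both genes at this locus had their smallest strain difference in brainstem. Abhd14a on chromosome 9, a hydrolase-fold protein, differed by -2.96 in striatum, -0.75 in hippocampus and -0.62 in brainstem (adjusted p = 3.3e-14), and its neighbour Abhd14b differed by -0.86 in striatum, 0.35 in hippocampus and 0.40 in brainstem (adjusted p = 0.00172). Cgref1, a secreted growth regulator, differed by 1.22 in striatum, 0.02 in hippocampus and -0.03 in brainstem (adjusted p = 1.63e-09). Sema3a differed by -1.70 in striatum, 0.19 in hippocampus and -0.14 in brainstem (adjusted p = 8.43e-04). For Cgref1 and Sema3a the strain difference was between -0.14 and 0.19 in the other tissues. S100a10 differed by -2.46 in striatum, -0.70 in hippocampus and -0.89 in brainstem (adjusted p = 4.52e-08), and F2r by 2.61 in striatum, 1.33 in hippocampus and 0.71 in brainstem (adjusted p = 6.11e-05). Bhlhe40 differed by 0.76 in striatum, -0.50 in hippocampus and -0.05 in brainstem (adjusted p = 4.17e-06). Syt2 differed by 0.91 in striatum, -0.29 in hippocampus and -0.02 in brainstem (adjusted p = 1.87e-04), and Aif1 by 1.22 in striatum, 0.46 in hippocampus and 0.02 in brainstem (adjusted p = 6e-07). Other genes had their smaller difference in striatum. Dubr, a long non-coding RNA, differed by 0.30 in striatum (adjusted p = 0.285), -2.34 in hippocampus and -2.22 in brainstem. Nme7, a nucleoside diphosphate kinase family member, differed by 1.16 in striatum, 1.54 in hippocampus and 3.30 in brainstem, and Cldn34c1, a claudin family member on the X chromosome, by -0.64, -1.59 and -4.47 in the same order.

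**Figure D5:**
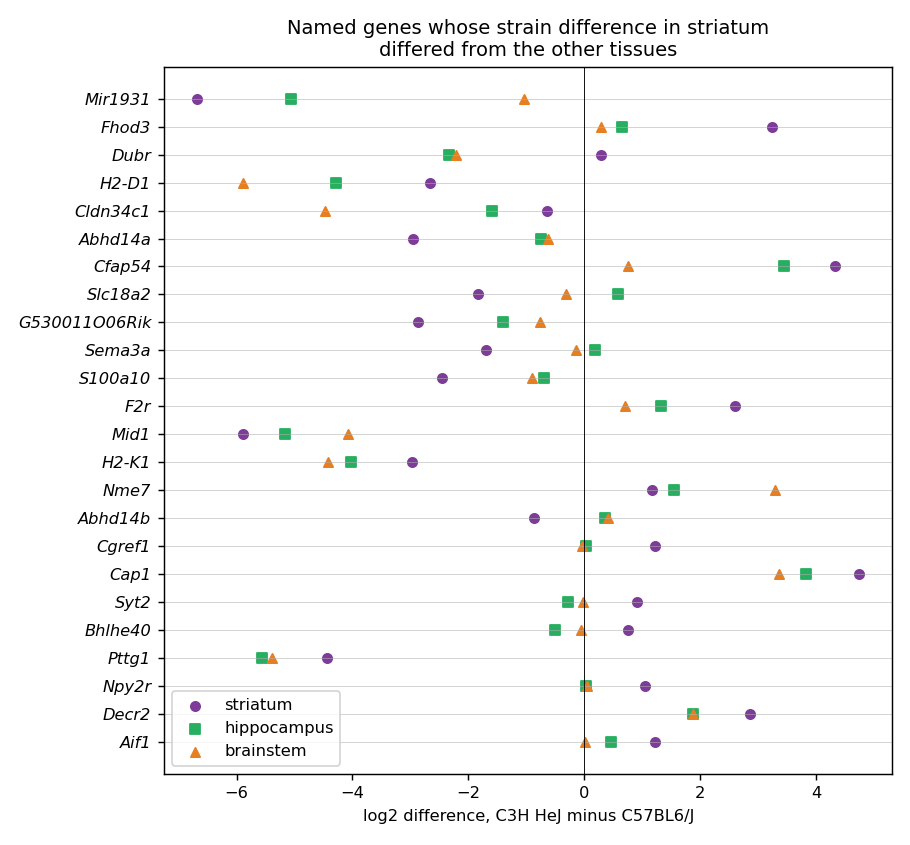
Difference between C3H HeJ and C57BL6/J (log2, horizontal axis) in striatum, hippocampus and brainstem for the 24 named genes with the largest difference between tissues. Mir1931 runs from -6.68 in striatum to -1.04 in brainstem, and Cgref1 and Sema3a lie near 0 in hippocampus and brainstem.

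The other 4 strains show on which side a difference lay. C3H HeJ minus the mean of the other 4 strains used the same C3H HeJ arrays, so its values are set beside the main ones and not counted as separate evidence, and 2867 of 12320 genes (23.3%) were called in it, 1790 without the first and 1754 without the second untested C3H HeJ pool. Mid1 averaged 2.12 in C3H HeJ and 2.07 to 2.12 in the other strains and read 6.95 to 8.58 on the C57BL6/J arrays, so C57BL6/J stood apart from all others. Wdfy1 averaged 10.46 in C3H HeJ, 10.31 to 10.47 in the other strains and 7.95 in C57BL6/J. Gabra2 averaged 11.91 in C3H HeJ, 11.68 to 11.91 in the other strains and 10.36 in C57BL6/J, and Nnt differed by -0.04 from the other strains. For these 4 genes C3H HeJ read like the other strains and was not called against them. C3H HeJ stood apart from the rest for other genes. Cldn23 averaged 7.18 in C3H HeJ, 2.70 to 3.53 in the other strains and 2.75 in C57BL6/J. Pla2g4e averaged 6.41 in C3H HeJ, 3.15 to 3.37 in the other strains and 3.15 in C57BL6/J, and Insyn2b averaged 6.73, 3.46 to 3.94 and 3.58 in the same order. Sox2ot averaged 5.30 in C3H HeJ, 9.26 to 9.49 in the other strains and 9.38 in C57BL6/J. Acer3 averaged 4.69 in C3H HeJ, 9.06 to 9.42 in the other strains and 8.73 in C57BL6/J. In these 5 genes no other strain mean came near that of C3H HeJ. Erdr1 averaged 8.93 in C3H HeJ, 2.30 to 9.59 in the other strains and 10.87 in C57BL6/J, and Tmem87a averaged 8.21, 1.97 to 7.97 and 2.01 in the same order, so the other strains were themselves divided.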

How the data were processed

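RNA from pooled tissue was hybridized to 54 Affymetrix mouse arrays, 1 pool of 3 mice each, and the 6 striatum arrays of C3H HeJ and C57BL6/J are described here. The authors summarized and deposited log2 values for 45101 probe sets. RMA, GCRMA 2.10.0, affy 1.16.0, limma 2.12.0 and R 2.6.1 are named in the submitters' processing notes. Those notes do not say which of RMA and GCRMA made the deposited log2 values, and their background corrections treat dim probe sets differently. The array totals carry no read depth, and the number of arrays limits the precision.

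Of the probe sets, 34945 had 1 gene symbol, 932 several and 9160 none, and only the first kind was named. Each gene was represented by the probe set with the highest mean over all arrays. A gene was tested where at least 3 of the 18 striatum arrays lay above the array's 40th percentile. Of 775 distinct genes on the lists, 589 were tested, and the list counts cover these only. Differences were fitted with limma 3.58.1 (R 4.3.3) with strain and testing as terms, an intensity trend, two-sided moderated tests and Benjamini-Hochberg adjustment over all genes tested, called at an adjusted p under 0.05. The tissue test used all 54 arrays. Summed levels are the log2 of the sum of a list's linear levels.

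Gene lists, named genes and tests were chosen with earlier results of these data known. Named were the 15 largest called differences each way, genes whose probe sets were all called alike and up to 4 called members of each list. The first measured members of each cell type list, the genes with the smallest p in the tissue test and Pdxdc1 were named as well. Further list members and neighbours were named after their values were seen. Arrays carry matching replicate numbers, but same-numbered pools did not deviate together (correlations -0.03, -0.21 and -0.28), so no block was used. On simulated data with 12320 genes, 66 genes were changed by 0.5 (log2), 67 by 1 and 67 by 2. Of those changed by 0.5, 50% were recovered, and of those changed by 1, 86.6%, and 12 calls (7.06% of those made) were false. Far fewer genes were changed there than the 2167 called in the data, so these rates do not carry over to the real comparison. Alternatives covered the samples fitted, scaling, filter, choice of probe set and leaving out each array.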

Additional observations from a re-analysis of the deposited data

Results flagged for a closer look

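The C3H HeJ minus C57BL6/J difference differed between tissues for 50 of the named genes. The limma test was of the difference in striatum minus the mean of the differences in hippocampus and brainstem. Of all genes, 9.91% were called in it. Genes were partly named for a small p in this test or for their striatum difference, which enters it. The count of 50 is therefore not comparable with that share. Values below are that double difference on the log2 scale, and a positive value means a more positive strain difference in striatum.

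Among genes with large strain differences, the value was -3.63 for Mir1931, 2.77 for Fhod3, -2.28 for Abhd14a, 2.23 for Cfap54, -1.73 for Sema3a, -1.66 for S100a10, 1.59 for F2r and -1.27 for Mid1. It was 1.15 for Cap1, 1.03 for Pttg1, 0.99 for Decr2, 0.83 for Casp9, 0.73 for Rps9 and 0.65 for Zfp874a. For Dubr, Cldn34c1, Nme7 and Cgref1 it was 2.58, 2.39, -1.26 and 1.23, and of these Cgref1 alone had its largest strain difference in striatum. Neighbours of named genes gave -1.78 for G530011O06Rik, -1.24 for Abhd14b, -0.62 for Rassf8 and -0.32 for Vps39.

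For genes of the major histocompatibility complex and of microglia the value was 2.41 for H2-D1, 1.26 for H2-K1, 0.99 for Aif1 and -0.88 for Fcrls. H2-D1 and H2-K1 were lower in C3H HeJ in every tissue, by less in striatum, and probe sets of H2-D1 disagreed in sign. For genes of transmission and signalling it was -1.96 for Slc18a2, 1.06 for Syt2, 1.02 for Npy2r, 0.92 for Trpc4, -0.55 for Rgs4, -0.50 for Kcnk2, 0.42 for Kcnj10 and 0.37 for Slc1a1. Rgs4 differed by -0.75 in striatum, -0.15 in hippocampus and -0.24 in brainstem.

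For the clock gene Bhlhe40 the value was 1.04, and for the glucocorticoid receptor Nr3c1 0.34. For candidate genes and pyridoxal phosphate enzymes it was 0.72 for Nrg1, 0.41 for Dtnbp1, 0.83 for Cth, 0.70 for Psat1 and 0.44 for Alas1. Nrg1 was 0.57 higher in C3H HeJ in hippocampus and differed by -0.77 in brainstem. For the transcription factors Eya1 and Sox9 it was 0.82 and -0.48, and for Glo1 0.25. For ribosomal, respiratory and chaperone genes it was 0.39 for Rpsa, 0.38 for Rps18, 0.21 for Rps2, 0.50 for Ndufc1, 0.57 for Manf and 0.46 for Hspe1. Groups of 3 arrays were too small to look for single outlying arrays of a gene. The tested C57L/J and BalbC/J striatum arrays, which stood apart from their strains in correlation over all probe sets, stayed in the main fit.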

How the results depend on the processing

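None of the 4 counts of calls left the range of 1.5 times its value except on leaving out single striatum arrays. With 1 array left out, the count of genes called between the strains was 1288 to 1710 (1428 without the first untested C3H HeJ pool, 1399 and 1288 without the untested C57BL6/J pools), that of probe sets 2949 to 3552, that against the other 4 strains 1754 to 2746 (1790 and 1754 without the untested C3H HeJ pools) and that of the tissue test 697 to 1149 (697 and 765 without the untested C57BL6/J pools); fewer arrays enter these fits. Other alternatives gave 1548 to 2577 genes, with 2577 when the tested C57L/J and BalbC/J arrays, which stood apart from their strains, were left out. Calls higher in C3H HeJ made up 59.4% after quantile normalization and 62.4% after median centring, against 71.0%; for probe sets 55.2% after quantile normalization against 65.8%; against the other 4 strains 57.4% and 58.5% after the same scalings, against 69.0%; and in the tissue test 67.6% after quantile normalization against 80.3%. With the replicate number as a block, 2083 genes, 4455 probe sets, 2750 genes against the other strains and 1196 in the tissue test were called, and Pdxdc1 stayed at -2.10; the numbers did not pair the pools. Pdxdc1 was -2.15 to -2.04 on leaving out arrays and -0.57 as a mean of probe sets.

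Of named-gene values under all alternatives, 228 lost their call, 1 gained it (Drd2) and 21 changed sign. Signs turned with the mean of probe sets for Grin2b (-0.46), Kcnq5 (-1.20), Rora (-0.058), Nr1d2 (-0.014), Pde10a (0.14) and Mbp (0.053), and with the probe set brightest over striatum arrays for Rps9 (0.23) and Sox11 (2.68). Near 0, they turned with quantile normalization for Mbp (0.093), Tac1 (-0.0095) and Iqgap2 (-0.0011), and with untested pools only for C1qa (-0.041). On leaving out single arrays they turned for C1qa (-0.0086 to 0.17), Iqgap2 (-0.077 to 0.23), Tac1 (-0.0022 to 0.12), Mbp (-0.046 to 0.031) and Ppp1r1b (-0.066 to 0.038). The cause was not tested. Signals near the dim end limit fold changes there.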
